A study of Mus musculus with 12 samples.

Results

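The genes described here are the 10 members of a set of inflammasome and interleukin-1 genes, out of 21912 mouse genes measured in the same way: the sensors Aim2, Ifi204 and Nlrp3, the adaptor Pycard, the caspases Casp1, Casp4 and Casp12, and the cytokines Il1a, Il1b and Il18. They were chosen by name, and every GENCODE transcript start of each gene was used. The assay was ATAC-seq, which marks open chromatin by the cuts of a transposase, and it was run on 2 mouse tumour lines. The groups were 4T1 with DAC at 1 µM, 4T1 control, B16F10 with DAC at 0.1 µM and B16F10 control, with 3 libraries each and 48 h of treatment in the DAC groups. 4T1 is a mammary carcinoma line and B16F10 a melanoma line, and DAC is the usual abbreviation of decitabine, a cytidine analog that dividing cells take into their DNA, where it traps and depletes DNA methyltransferases. The dose differs between the lines, so line and dose cannot be told apart in any difference of the DAC groups. Live cells of all groups were kept after bead removal of dead ones, no vehicle is named for the controls, and nothing in the labels says that replicates came from separate cultures. The p-values below can thus speak only of how these libraries vary, and part of that variation may be technical.

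Inflammasomes are cytosolic complexes that form when a sensor meets microbial or damage signals. AIM2 binds double-stranded DNA, IFI204 is a mouse member of the same HIN-domain family that takes part in DNA sensing, and NLRP3 responds to ion fluxes and membrane damage. PYCARD, also called ASC, bridges sensors to caspase-1, which cuts the precursors of interleukin-1 beta and interleukin-18 into their active forms and cuts gasdermin D, the pore former of pyroptosis. Mouse caspase-4, often called caspase-11, binds cytosolic lipopolysaccharide and also cuts gasdermin D. Caspase-12 is encoded beside both in the same gene cluster and has been studied in endoplasmic reticulum stress. Interleukin-1 alpha is active as a precursor and is made by many epithelial cells. Myeloid cells are the best known place of strong Nlrp3, Pycard, Casp1 and Il1b expression.

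Each library came as its own list of peaks, with 49622 to 118603 peaks on the 21 chromosomes used. A gene was called in a library when a peak touched the 1000 bp on either side of any of its transcript starts, and its locus was the gene with 50000 bp on each side. The fold enrichment of a peak over the local background is the authors' value. The strength percentile is the rank of a peak's −log10 q within its own list, where 100 is the strongest. The lists carry no read totals, so library depth is known only as the minimum that the labels state, and a place without a peak may still be open below the detection limit. A promoter of any gene was called for 66.3% to 67.4% of genes in 4T1 DAC libraries, 61.2% to 61.7% in 4T1 controls, 55.1% to 56.1% in B16F10 DAC libraries and 54.4% to 54.9% in B16F10 controls.

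Promoter peaks were called for more members in 4T1 than in B16F10, and no member gained or lost its promoter call with DAC in all libraries of a line. A promoter peak was called for 6, 7 and 6 of the 10 members in the 4T1 DAC libraries and for 9, 7 and 9 in the 4T1 controls. The B16F10 DAC libraries had 2, 2 and 2 members with a promoter peak, and the B16F10 controls had 2, 1 and 2. So the member count was not higher in DAC libraries of 4T1, although more genes overall were called there.

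**Figure D1:**
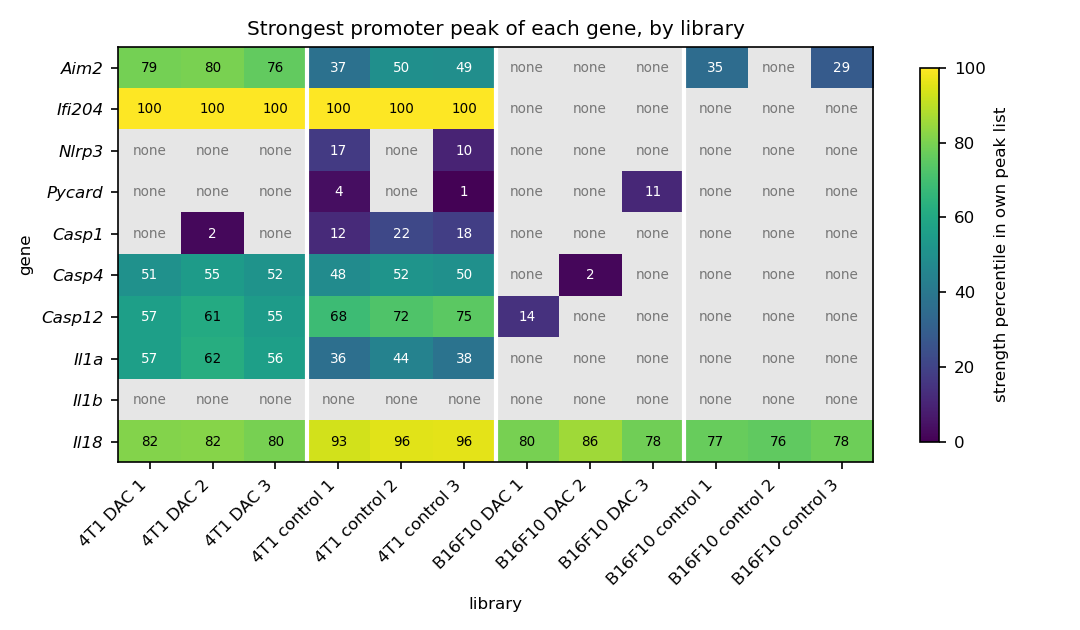
Strength percentile of the strongest promoter peak of each gene (rows) in each of the 12 libraries (columns), from 0 (weakest peak of that library) to 100 (strongest); grey cells had no promoter peak. Ifi204 lies at 99.7 or above in the 6 4T1 libraries and has no peak in B16F10, Il18 is called in all 12 libraries, and Il1b in none.

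Called in 3 of 3 DAC libraries and 0 of 3 controls were 0 of 10 members in 4T1, where 4.42% of all genes had this pattern, and 0 of 10 in B16F10, where 0.283% had it. The reverse, controls alone, held for 0 of 10 members in either line, against 0.361% of genes in 4T1 and 0.0867% in B16F10. Ifi204 and Il1a were called in all 6 4T1 libraries and no B16F10 library, 2 of 10 members against 6.11% of genes. No member was called in all B16F10 and no 4T1 libraries, a pattern of 0.876% of genes. Il18 alone was called in all 12 libraries, as 50.2% of genes were, and Il1b alone in none, as 27.4% were. With each library cut to the 49622 strongest peaks, Il1a was called in 4T1 DAC libraries alone and Casp4 in 4T1 controls alone. Ifi204 was then the only member left in all 4T1 and no B16F10 libraries. The shares of all genes under this cut were not measured.

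Aim2, a cytosolic DNA sensor, held the DAC-alone region with the highest fold enrichment among the 10 loci. Its gene model spans chr1:173350879-173466040 on the plus strand (mm10) with 6 distinct starts, and these did not behave alike. The start at 173420598, inside the gene, carried a peak in 3 of 3 4T1 DAC libraries and in no other library, with fold enrichments of 16.4, 15.9 and 14.7 and strength percentiles of 79.1, 79.8 and 75.8. The first start, at 173350879, was instead called in all 6 4T1 libraries, with folds of 3.78, 3.46 and 4.94 in DAC libraries and 6.24, 6.82 and 6.58 in controls. A region 105.7 kb from the gene 5′ end, near the last starts, was called in all 6 4T1 libraries and in 3 of 3 B16F10 controls, with B16F10 control folds of 7.55, 4.88 and 6.43, but in 0 of 3 B16F10 DAC libraries. These other starts are why the gene as a whole was not called in DAC libraries alone. With promoters of 500 bp on each side, Aim2 became the 1 member called in 4T1 DAC libraries alone. The share of all genes at this width was not measured.

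The sequence of the DAC-alone Aim2 start is shown because it was the only member start called in 3 of 3 4T1 DAC libraries and 0 of 3 controls. It is the exon-free stretch around the summit, chr1:173420447-173420570, plus strand, GRCm38.p6, with a match to the PU.1 motif GAGGAAGT in capitals.
Aim2 internal start: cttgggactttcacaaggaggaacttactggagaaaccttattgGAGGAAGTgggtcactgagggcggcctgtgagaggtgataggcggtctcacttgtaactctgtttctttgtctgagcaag
This motif, read on both strands, occurs in 3.20% of the 32851 RefSeq promoter windows, and within 100 bp of the summit in 2.11% of all 4T1 DAC-alone regions. The match is a description of the sequence and not a binding event. The promoter window of this start holds 1.67 CpG per 100 bp, below the median of 2.33 over all RefSeq promoter windows. Spi1, the gene that encodes PU.1, had a promoter peak in 3 of 3 4T1 controls and in no other library. Its percentiles were 23.3 to 32.1, and any part of PU.1 in the Aim2 call was not tested.

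Within Aim2, 2 further regions were called in 4T1 DAC libraries alone, both intronic and both with an AP-1 match (TGANTCA) within 100 bp of the summit. The one at 98.1 kb from the gene 5′ end had folds of 5.23, 6.53 and 5.89, and the one at 99.6 kb had 3.63, 4.93 and 3.50. Introns at 41.0, 57.4, 58.3 and 86.8 kb held regions called in all 6 4T1 and no B16F10 libraries, such as 58.3 kb with folds of 15, 14.9 and 15.2 in DAC libraries and 16, 16.9 and 17.4 in controls. In total the Aim2 locus held 12, 15 and 13 peaks in 4T1 DAC libraries, against 8, 10 and 10 in 4T1 controls. It held 0, 1 and 0 peaks in B16F10 DAC libraries and 1 in each B16F10 control. The 4T1 arms did not overlap. Their difference of 4 peaks had the smallest p that 3 against 3 libraries allow (exact two-sided permutation, p = 0.10). Every 4T1 DAC library lay above every 4T1 control for 35.6% of all genes. The 4T1 DAC lists were longer, with 108083 to 118603 peaks against 89780 to 94229 in 4T1 controls.

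Ifi204 (chr1:173747293-173766943, minus strand) had one of the strongest promoter peaks of any gene in 4T1 and none in B16F10. Its folds were 18.7, 17.8 and 17.9 in 4T1 DAC libraries and 18.3, 18.6 and 18 in 4T1 controls, and the strength percentiles were 99.7 or higher in all 6. No peak was called anywhere in the locus in any of the 6 B16F10 libraries. The arms of 4T1 overlapped in rank and had 5, 8 and 7 peaks in the locus with DAC, against 5, 6 and 6 in controls. The 151 bases around the summit, chr1:173766978-173767128, are shown on the minus strand (GRCm38.p6), with capitals for an interferon response element match (a pair of GAAA stretches with any 2 bases between) and the AP-1 match (TGANTCA).
Ifi204 start: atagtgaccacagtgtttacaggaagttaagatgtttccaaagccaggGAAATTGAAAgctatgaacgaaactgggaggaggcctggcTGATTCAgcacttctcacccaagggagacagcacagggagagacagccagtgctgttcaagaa
The first motif occurs in 3.44% and the second in 7.81% of all RefSeq promoter windows. These 151 bases occur 1 time in the 21 chromosomes. Ifi204 lies among close relatives, and the part of reads from similar stretches of the family in its other regions was not tested. A weak intronic region of the pseudogene Ifi203-ps, 18.9 kb upstream, was called in 4T1 DAC libraries alone, with folds of 3.34, 4.13 and 4.94.

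Nlrp3 (chr11:59541568-59566956, plus strand) was hardly called at its starts. Weak peaks at the first start appeared in 2 of 3 4T1 controls, with folds of 5.07 and 3.99, and in none of the 3 4T1 DAC or 6 B16F10 libraries. An intronic region at 2.7 kb was called in all 6 4T1 libraries, with folds of 7.55, 8.13 and 7.33 in DAC libraries and 7.21, 8.11 and 8.18 in controls. Further into the gene, introns at 9.6 and 12.8 kb were called in 4T1 DAC libraries alone. The first had folds of 3.27, 3.78 and 3.87 and the second 7.67, 8.97 and 8.64. Counted as single peaks, of which a merged region can hold more than 1 per library, the gene body had 4, 4 and 4 in 4T1 DAC libraries and 1, 1 and 1 in 4T1 controls, while the flanks held 8, 10 and 10 with DAC and 10, 14 and 13 in controls. Over the locus the counts were 12, 14 and 14 with DAC against 12, 15 and 15 in controls, and these overlap. B16F10 had 3, 7 and 5 peaks with DAC and 6 in each control.

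The intronic region at 12.8 kb is shown because it was called in 3 of 3 DAC libraries and 0 of 3 controls also when all lists were cut to 49622 peaks. The stretch is chr11:59554323-59554473, plus strand, GRCm38.p6, with its AP-1 match in capitals.
Nlrp3 intron: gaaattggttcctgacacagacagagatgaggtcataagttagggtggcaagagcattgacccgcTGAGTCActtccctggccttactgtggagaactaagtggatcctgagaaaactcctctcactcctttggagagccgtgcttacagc
The flank upstream of Nlrp3 had the opposite pattern. Regions at −27.8 and −19.6 kb, in Zkscan17, were called in 3 of 3 4T1 controls and 0 of 3 DAC libraries, with folds of 7.40, 7.55 and 8.78 and of 5.61, 3.34 and 4.43. The first was also called in B16F10 control 1, with a fold of 3.6. A region at −26.5 kb was called in 3 of 3 B16F10 controls, with folds of 3.6, 5.26 and 2.86, and 0 of 3 B16F10 DAC libraries. Downstream, at 59.5 kb between genes, a region was called in all 4T1 and no B16F10 libraries at percentiles of at least 98.5, with folds of 17.6, 16.8 and 18.9 with DAC and 17.7, 17.4 and 18 in controls.

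Pycard (chr7:127989708-127993867, minus strand) was called at a start in 0 of 3 4T1 DAC libraries, 2 of 3 4T1 controls, 1 of 3 B16F10 DAC libraries and 0 of 3 B16F10 controls. These peaks were weak, with folds of 2.49 and 2.09 in the 4T1 controls and 3.23 in the B16F10 DAC library. A region 1.8 kb into the gene was called in all 12 libraries. Its folds were 7.24, 7.55 and 7.99 with DAC and 5.67, 7.56 and 8.36 without in 4T1, and 8.86, 7.30 and 7.40 with DAC and 10.1, 8.33 and 9.02 without in B16F10. It also lies at an annotated start of Gm45205. The 1 region of any member locus called in B16F10 DAC libraries alone, at 51.6 kb in an intron of Prss36, consists wholly of repeat bases and had folds of 6.56, 6.27 and 5.38. The Pycard locus held 9, 9 and 11 peaks in 4T1 DAC libraries and 9, 9 and 10 in 4T1 controls, and 4, 4 and 4 in B16F10 DAC libraries and 3, 3 and 5 in B16F10 controls. The arms overlapped in both lines.

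The 3 caspase genes lie side by side on chromosome 9, and their loci share regions. Casp1 had a weak start peak in all 4T1 controls, with folds of 4.48, 5.34 and 4.99, while 1 of 3 DAC libraries called it, with a fold of 2.53. Casp4 was called at its first start in all 4T1 libraries, with folds of 7.12, 7.46 and 7.49 in DAC libraries and 10.7, 11.2 and 10.8 in controls, and in 1 B16F10 DAC library with a fold of 3.33. Casp12 had folds of 8.28, 8.93 and 8.12 in 4T1 DAC libraries and 15.8, 17.3 and 18.7 in 4T1 controls, and a fold of 4.61 in 1 B16F10 DAC library. So at each of the 3 starts the 4T1 controls held the larger folds. Fold enrichment and rank depend on the whole list, and the median fold of a whole list was 5.6 to 6.05 in 4T1 DAC libraries and 8.07 to 8.38 in controls.

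To set ranks side by side, the 4T1 lists were cut to the same 89780 strongest peaks. Casp12 then ranked at percentiles 46.5, 48.8 and 45.7 with DAC and 68.5, 71.2 and 74.1 in controls. Casp4 ranked at 39.1, 40.2 and 41.7 with DAC and 48.1, 49.3 and 48.7 in controls. The peak at the Casp1 start was in all 3 control lists, at 12.1, 17.9 and 16.4, and in none of the 3 DAC lists. Of 12823 genes with a promoter peak in all 6 cut lists, 18.5% had every DAC library below every control, as Casp4, Casp12 and Il18 had, and 39.9% had every DAC library above, as Aim2 and Il1a had. For Aim2 this rank compares different starts in the 2 arms.

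The stretches upstream of Casp4 and Casp12 are shown because these starts were open in 4T1 and of lower rank with DAC. Both are on the plus strand of GRCm38.p6, chr9:5308628-5308827 and chr9:5345230-5345429, and the capitals mark an NF-kB match (GGG and TTTCC with any 2 bases between) in the first and a STAT dimer match (TTCNNNGAA) in the second.
Casp4: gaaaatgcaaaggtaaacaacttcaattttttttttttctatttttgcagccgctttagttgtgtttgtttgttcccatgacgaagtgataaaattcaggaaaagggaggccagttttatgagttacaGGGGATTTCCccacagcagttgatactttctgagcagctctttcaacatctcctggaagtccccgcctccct
Casp12: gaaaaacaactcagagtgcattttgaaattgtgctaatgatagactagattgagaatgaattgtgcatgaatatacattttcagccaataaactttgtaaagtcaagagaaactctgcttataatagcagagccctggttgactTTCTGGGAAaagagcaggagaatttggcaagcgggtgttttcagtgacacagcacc
The NF-kB motif occurs in 1.63% and the STAT motif in 8.30% of RefSeq promoter windows.

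Upstream of Casp1, regions at −18.3 and −14.3 kb were called in 4T1 DAC libraries alone. The first had folds of 6.39, 5.06 and 5.26 and the second 5.37, 7.06 and 6.05. Both consist wholly of repeat bases and were rich in CpG, with 5.99 and 4.52 per 100 bp. The 151 bases around their 2 summits are identical, and this stretch occurs 39 times in the 21 chromosomes. All 39 copies lay in a called region, and 32 of them in a region called in 4T1 DAC libraries alone. Reads that fall within such copies cannot be assigned to one of them, and the part of such reads in these 2 regions was not tested. Farther upstream, at −34.3 kb from Casp1, lay the only member region called in all 6 B16F10 and no 4T1 libraries, with folds of 9.34, 12.9 and 10.6 with DAC and 14.0, 16.5 and 11.8 without. Beyond Casp12, at 50.6 and 55.9 kb, regions were called in 4T1 controls alone, with folds of 6.43, 5.71 and 5.59 and of 5.46, 5.34 and 4.59, and 95.1% and 96.3% of their bases were repeats. The Casp12 locus held 2, 4 and 2 peaks in 4T1 DAC libraries and 6 in each 4T1 control, without overlap (exact two-sided permutation, p = 0.10, the smallest possible). No other member had this order, which 4.89% of all genes had. B16F10 had 1, 1 and 0 peaks there with DAC and 0 in each control. Casp1 and Casp4 had equal counts in every library, 4, 6 and 4 with DAC and 4 in each control of 4T1, and 3, 3 and 2 with DAC and 2, 1 and 1 without in B16F10.

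Il1a and Il1b are neighbours on chromosome 2, both on the minus strand, and had different start calls. Il1a (chr2:129299610-129309972) had a start peak in all 4T1 libraries and no B16F10 library, with folds of 8.28, 9.19 and 8.44 with DAC and 7.99, 9.21 and 7.98 in controls. In lists of equal length it ranked at percentiles 46.5, 50.2 and 47.5 with DAC and 36.4, 41.5 and 36.4 in controls. Il1b (chr2:129364570-129371139) had no peak at any start and none in its gene body in any of the 12 libraries. The 200 bases upstream of each are shown because the pair differs in its calls. These stretches are chr2:129309973-129310172 and chr2:129371140-129371339, minus strand, GRCm38.p6, with matches to TATAAA and to AP-1 (TGANTCA) in capitals. Both hold a TATA match, a motif of 13.6% of RefSeq promoter windows. The AP-1 match, a motif of 7.81% of these windows, lies in Il1a only. Any part of either motif in the calls was not tested.
Il1a: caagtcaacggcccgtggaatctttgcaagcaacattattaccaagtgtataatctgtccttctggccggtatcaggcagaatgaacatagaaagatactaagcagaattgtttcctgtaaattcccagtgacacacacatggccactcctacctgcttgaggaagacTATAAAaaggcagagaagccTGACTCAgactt
Il1b: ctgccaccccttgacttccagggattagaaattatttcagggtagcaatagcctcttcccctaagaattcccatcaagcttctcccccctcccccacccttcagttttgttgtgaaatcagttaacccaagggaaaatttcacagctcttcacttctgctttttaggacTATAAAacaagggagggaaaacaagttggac

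The flanks of Il1b held many peaks in 4T1 although its start had none. Its locus held 16, 17 and 16 peaks in 4T1 DAC libraries, 15, 16 and 17 in 4T1 controls, 2, 3 and 2 in B16F10 DAC libraries and 2, 2 and 3 in B16F10 controls. Of its 18 regions, 11 were called in all 4T1 and no B16F10 libraries, and 7 of the 11 Il1a regions had this pattern. The loci overlap, so several regions count for both genes. Il1a had 12, 11 and 10 locus peaks with DAC and 12 in each control of 4T1, and 3, 3 and 2 with DAC and 3, 2 and 3 without in B16F10. The highest ranked of them for Il1b lay at −36.7 kb, with folds of 11.1, 10.5 and 10.7 with DAC and 12.4, 12.8 and 12.7 in controls. At −42.5 kb the equal-length ranks were 83.4, 82.2 and 83.7 with DAC and 71, 72.5 and 70.5 in controls. At 24.4 kb they ran the other way, with 12.5, 25.8 and 31.9 against 52.0, 54.5 and 48.0. No region of either locus was called in DAC or control libraries alone.

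Il18 (chr9:50554827-50581840, plus strand) was the only member with a start peak in all 12 libraries. Its folds were 17.1, 16 and 15.5 in 4T1 DAC libraries, 20.5, 22.0 and 22.8 in 4T1 controls, 15.7, 18.3 and 14.1 in B16F10 DAC libraries and 17.3, 17.8 and 16.9 in B16F10 controls. The region also lies at a start of Bco2, so it cannot be given to Il18 alone. In equal-length 4T1 lists it ranked at 77.3, 76.1 and 75.3 with DAC against 93.2, 95.4 and 95.8 in controls, the reverse of B16F10, where the ranks were 77.7, 83.1 and 76.4 with DAC against 74.9, 75.7 and 76.1. In B16F10 every DAC library was above every control for 9.2% of 11473 genes and below for 9.37%. The difference between the lines was not tested.

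The Il18 locus had 4 of the 12 regions called in 4T1 DAC libraries alone. The strongest, at 6.5 kb, lies at the start of Tex12, a meiotic gene placed within Il18, and had folds of 8.42, 9.59 and 8.12. It was the member region with the most CpG among them, 6.77 per 100 bp. Its exon-free part, chr9:50561326-50561411 on the plus strand of GRCm38.p6, is shown with CpG in capitals because it stands apart from the other DAC-alone sequences above.
Tex12 start within Il18: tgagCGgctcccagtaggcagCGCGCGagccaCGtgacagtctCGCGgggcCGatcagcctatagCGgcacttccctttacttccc
The others lay in introns of Bco2 at −11.1 kb, with folds of 6.90, 6.08 and 5.06, and at −12.3 kb, with 2.33, 2.70 and 2.49, and at a start of Pts at −29.1 kb, with 4.35, 3.65 and 4. An intronic region at 15.5 kb was called in all 4T1 and no B16F10 libraries, with folds of 21.2, 23.5 and 20.8 with DAC and 24.5, 23.7 and 24.1 in controls. The locus held 16, 15 and 15 peaks in 4T1 DAC libraries and 13, 11 and 14 in 4T1 controls, without overlap (exact two-sided permutation, p = 0.10, the smallest possible). Of all genes, 35.6% had every 4T1 DAC library above every 4T1 control. B16F10 had 5 in each DAC library and 5, 6 and 5 in controls.

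**Figure D2:**
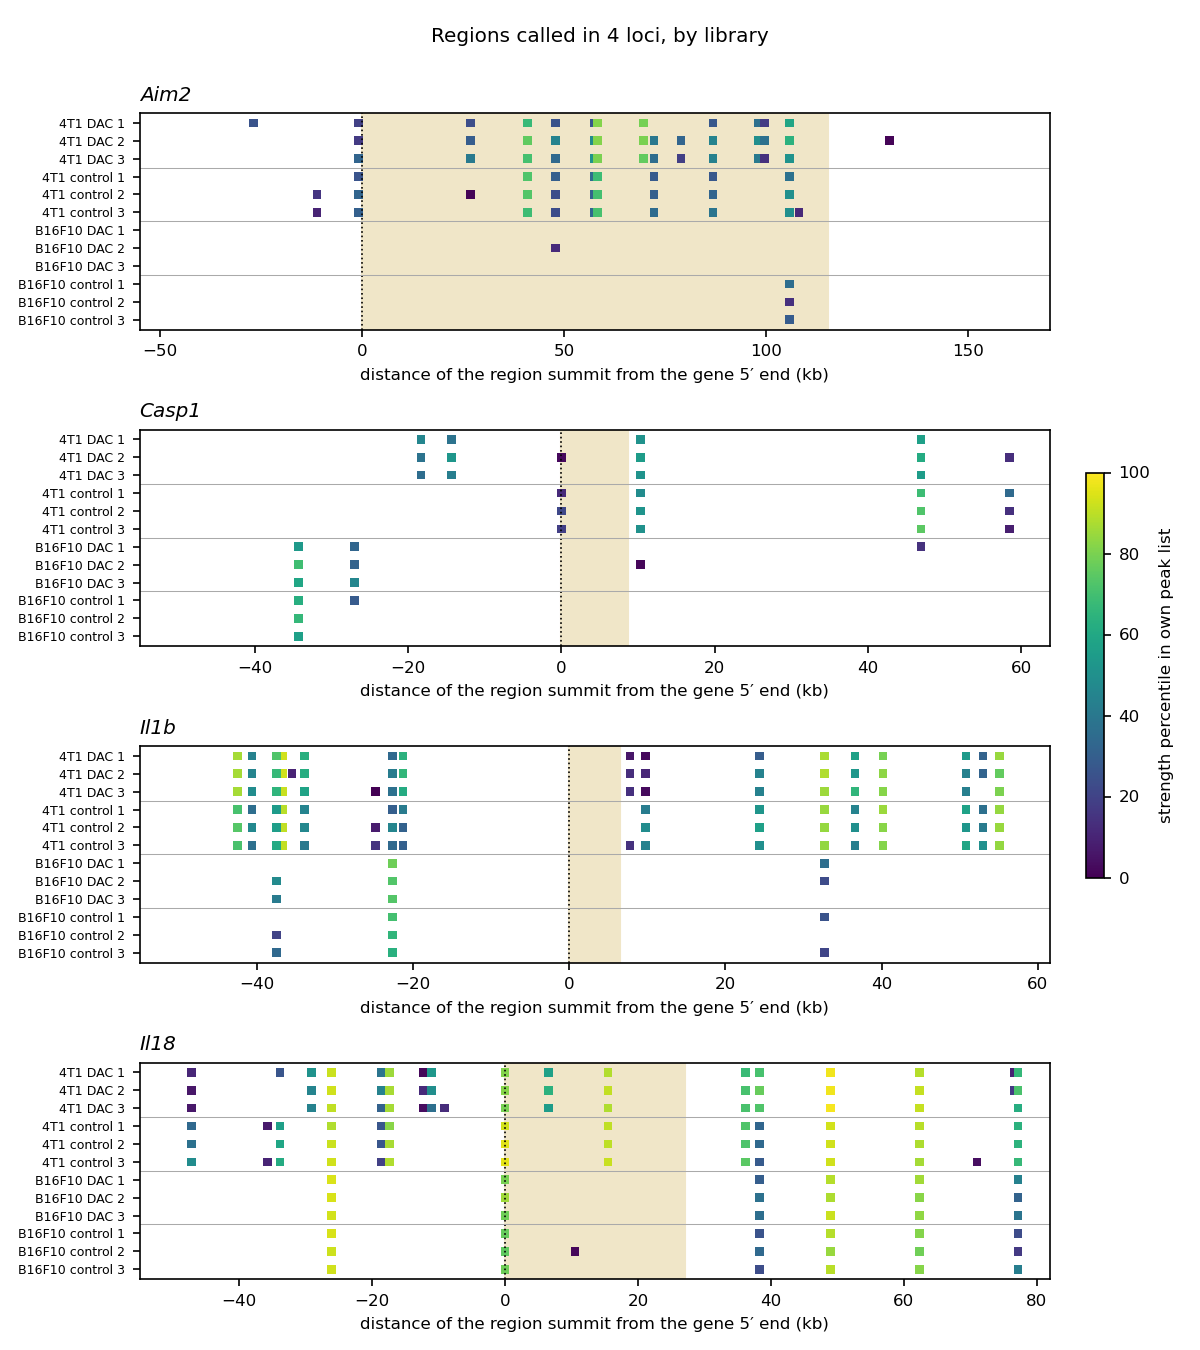
Regions called in the loci of Aim2, Casp1, Il1b and Il18, by distance of the region summit from the gene 5′ end in kb (horizontal axis) and library (rows); each square is a called region, coloured by its strength percentile in that library, and the shaded band is the gene. The Aim2 region at 69.6 kb and the Il18 region at 6.5 kb are filled in the 3 4T1 DAC rows and empty elsewhere.

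Across the set, the number of peaks per locus did not pass the test for DAC in any member. The exact permutation test over both lines, with 400 relabellings within lines and Benjamini-Hochberg adjustment over 20874 genes with a locus peak, called 0 of 10 members and 0% of genes in either direction. With 0% of genes called, a member at 0.005, the smallest p of this permutation test, could not have passed after adjustment either. This 0 of 10 thus says little of the members. Unadjusted p-values under 0.05 numbered 0 among members and 3353 among all genes. The smallest adjusted p of a member was 0.269, for Casp1 and Casp4, whose mean difference was 1 peak. Aim2 and Il18 had every 4T1 DAC library above every control, 2 of 10 members against 35.6% of genes, and Casp12 had the reverse, 1 of 10 against 4.89%. In B16F10 no member had either order, against 7.23% of genes above and 1.78% below. The median difference in 4T1 was 0.500 peaks over the members and 1 over all genes, and in B16F10 it was 0 for both. The DAC difference was larger in 4T1 than in B16F10 by 4.67 peaks for Aim2 and by 3 for Il18, and lower by 4 for Casp12. Exact permutation of treatment labels within each line gave p of 0.02, 0.05 and 0.02 in that order, and an adjusted p of 0.370 for each. The null of this test is no DAC difference in either line, so it does not test whether the lines differ.

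Between the lines, all 10 members had more locus peaks in 4T1. Each 4T1 library lay above each B16F10 library for 10 of 10 members, against 52.5% of genes. The test used the mean of the line differences in DAC and in control libraries, and in the DAC libraries the dose differs too. In this exact two-sided permutation test each member had p = 0.005, the smallest possible, and 0.00845 after adjustment. In control libraries alone each member had p = 0.10 in the exact permutation test, the smallest that 3 against 3 libraries allow. Among all genes 68.9% were higher in 4T1 and 3.32% higher in B16F10 by this test. The mean difference was largest for Il1b, at 13.8 peaks, followed by Aim2 at 10.7, Il1a and Il18 at 8.83, Nlrp3 at 8.17, Ifi204 at 6.17, Pycard at 5.67, Casp12 at 4 and Casp1 and Casp4 at 2.33. The median over the members was 7.17 and over all genes 3.50. In control libraries alone these medians were 6.67 and 3. The 4T1 lists were longer, however. With 49622 peaks in every library 6 members were still higher in 4T1, namely Aim2, Ifi204, Casp12, Il1a, Il1b and Il18, where 23.3% of genes were. Nlrp3 and Pycard no longer passed, at 1.5 and 0.667 peaks (exact permutation, adjusted p = 0.0968 and 0.487), and for Casp1 and Casp4 the difference was −0.333 (exact permutation, adjusted p = 0.792).

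**Figure D3:**
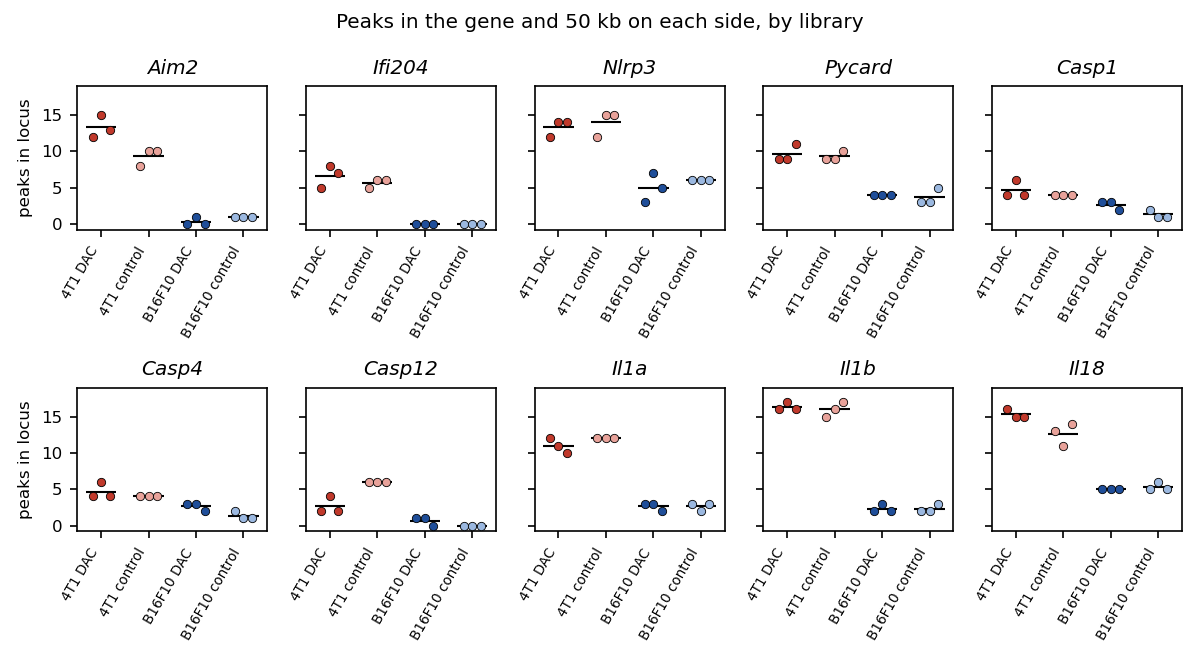
Number of peaks in each gene with 50000 bp on each side (vertical axis) in 3 libraries per group (points), with the group mean (line). In all 10 panels the 4T1 points lie above the B16F10 points, and the 4T1 arms separate for Aim2 and Il18 (DAC above control) and for Casp12 (DAC below control).

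The loci together held 119 distinct regions, of which 108 were called in 4T1 and 36 in B16F10. In 4T1, 12 of 108 were called in DAC libraries alone, where 12% of all regions called in 4T1 had this pattern, and 4 in controls alone, where 3.57% had it. In B16F10, 1 of 36 was called in DAC libraries alone, against 2.27%, and 2 in controls alone, against 0.892%. All 4T1 and no B16F10 libraries called 34 of the 119, against 19% of all regions, and all B16F10 and no 4T1 libraries called 1, against 5.34%. Of the 12 DAC-alone regions, 7 remained with a fold of at least 5 and 8 with 4T1 lists of equal length. Under both of these settings they included the Aim2 regions at 69.6 and 98.1 kb, the Nlrp3 intron at 12.8 kb and the Tex12 start. The Bco2 intron at −11.1 kb from Il18 and the repeat regions at −18.3 and −14.3 kb from Casp1 also remained under both. The counts were then 7 in DAC libraries alone against 8 in controls alone at that fold, and 9 against 9 with lists of equal length. The count in controls alone rose to 9 without 4T1 control 1 and to 8 without 4T1 control 2. The shares of all regions under these settings were not measured, so whether the member counts differ from them is not known. Of 52 regions called in all 6 equal-length 4T1 lists, 12 had every DAC library above every control in rank and 15 the reverse, against 27.2% and 36.4% of all such regions.

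The DAC-alone regions of these loci held a median of 1.66 CpG per 100 bp, while all 17577 DAC-alone regions of 4T1 held 3.04. More than 50% repeat bases were found in 16.7% of the first and 46.7% of the second. The AP-1 motif lay within 100 bp of the summit in 5 of the 12, against 18% of all DAC-alone regions. It lay in 22 of the 34 member regions called in all 4T1 and no B16F10 libraries, against 58.6% of all regions of that class, and in 0 of the 13 called in all 12 libraries, against 13.4%. These shares are descriptions of sequence.

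**Figure D4:**
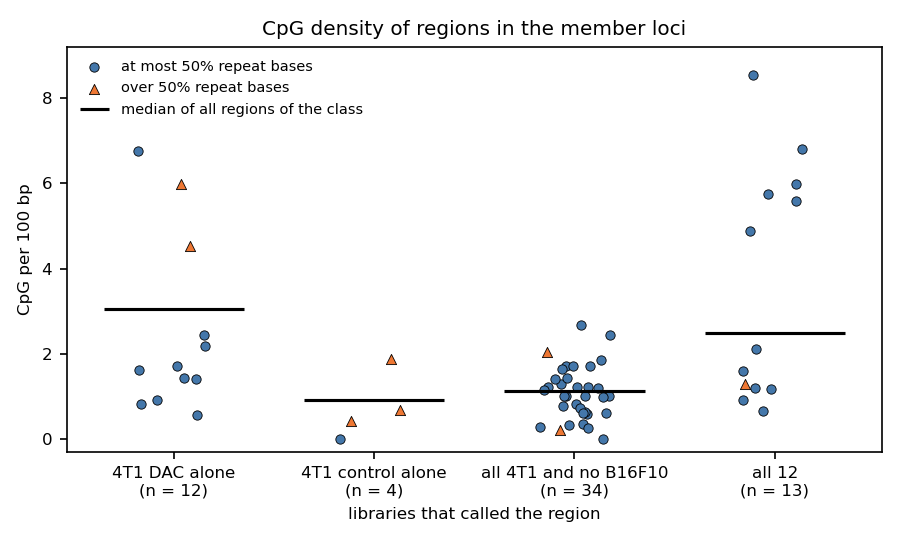
CpG per 100 bp (vertical axis) of the distinct regions of the member loci in 4 classes of calls (horizontal axis); triangles have more than 50% repeat bases, and the line is the median of all regions of the class. In the DAC-alone class the Tex12 start and the repeat regions upstream of Casp1 lie highest, from 4.52 to 6.77, and the rest lie below the line of 3.04.

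Other genes of the pathway were counted at their promoters. Of all genes, 6.11% were called in all 4T1 and no B16F10 libraries and 4.42% in 4T1 DAC libraries alone. All 12 libraries called 50.2%, and 27.4% were called in none. Of 11 further sensors, 0 were called in 1 arm alone or in all libraries of 1 line, and Nlrp1a, Nlrp1b, Mefv, Nlrp10 and Nlrp12 had no peak in any library. Of 11 Ifi200 family relatives of Ifi204, 5 were called in all 4T1 and no B16F10 libraries, namely Ifi202b, Ifi203, Ifi205, Ifi211 and Mndal, and Ifi213 was called in 4T1 DAC libraries alone at percentiles of 39.2 to 45.6. Ifi203 and Mndal had equal percentiles in each 4T1 library, so a single peak may be counted for both. B16F10 libraries called 0 of the 11, while each of them called 54.4% to 56.1% of all genes. Of 13 adaptors, regulators and effectors, 9 were called in all 12 libraries, among them Nek7, a partner of NLRP3, and Casp8. Among those called in all 4T1 and no B16F10 libraries were Gsdmd, which encodes gasdermin D, and Panx1, which encodes a membrane channel.

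Of 16 other interleukin-1 family ligands, receptors and antagonists, 5 were called in all 4T1 and no B16F10 libraries, against 6.11% of all genes. They were the decoy receptor gene Il1r2, the receptor antagonist gene Il1rn, the interleukin-33 receptor gene Il1rl1, the interleukin-18 receptor subunit gene Il18rap and Il18bp, whose product binds interleukin-18. Il1f6, an interleukin-36 ligand gene, was called in 4T1 DAC libraries alone at percentiles of 6.14 to 28.8. Il33 was called in 4T1 controls alone and in all 6 B16F10 libraries. Of 14 genes of interleukin-1 and Toll-like receptor signalling, such as Myd88 and Traf6, 13 were called in all 12 libraries, against 50.2% of all genes.

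Marker genes were read in the same way, since inflammasome genes are best known from myeloid cells. Of all genes, 6.11% were called in all 4T1 and no B16F10 libraries and 0.876% in the reverse. A further 50.2% were called in all 12 libraries, 27.4% in none and 0.361% in 4T1 controls alone. Of 12 myeloid markers, Cd14, Fcgr1 and Laptm5 were called in all 4T1 and no B16F10 libraries, as Ifi204 and Il1a were, with percentiles of 73.4 to 81 for Cd14, 27.3 to 50.7 for Fcgr1 and 30.6 to 54 for Laptm5. Csf1r and Cd68 were called in all 12 libraries, Lyz2 in all B16F10 and no 4T1 libraries, and Spi1 in 4T1 controls alone. Ptprc, Itgam, Adgre1 and Tyrobp had no promoter peak in any library. The number called was 5 in each 4T1 DAC library, 6 or 7 in 4T1 controls, 3 in B16F10 DAC libraries and 3 or 4 in B16F10 controls. Any part of myeloid cells in the members' calls was not tested. Of 9 lymphocyte markers 1 was called in every 4T1 library, and 7 were called in none of the 12. Of 11 mammary epithelial markers 6 were called in all 4T1 and no B16F10 libraries, namely Krt8, Krt18, Krt14, Epcam, Cdh1 and Cldn7, and of 10 melanocyte markers 5 in all B16F10 and no 4T1 libraries, namely Tyrp1, Dct, Mlana, Slc45a2 and Gpr143. The calls of the other markers on these lists did not fully separate the lines, though some ranks did. The epithelial markers Elf5 and Grhl2 and the melanocyte markers Mitf and Pmel were called in all 12 libraries. Grhl2 ranked at percentiles of 82.9 to 93.7 in 4T1 and 42.5 to 59.3 in B16F10, while the ranks of Elf5, Mitf and Pmel overlapped. Esrp1, on the epithelial list, was called in all 4T1 libraries, 3 of 3 B16F10 DAC libraries and 2 of 3 B16F10 controls. Its percentiles were 66.5 to 76.9 in 4T1 and 5.68 to 39.4 in B16F10. The calls of Krt5, Trp63, Tyr and Oca2 were absent in all libraries. Sox10, a melanocyte factor, was called in all B16F10 libraries, at percentiles of 63.6 to 69.7, and in 4T1 DAC libraries, at 11.6 to 14.2.

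The genes whose promoter percentiles were most like a member's over the 12 libraries, with 0 where no peak was called, were found for members called in 1 to 11 libraries. Aim2 was most like Rufy3 and Pmp22 (Pearson's r = 0.9780 and 0.9742), Casp1 like Cabp2 and C030005K15Rik (0.9965 and 0.9959), Casp4 like Dynap and Thpo (0.9997 and 0.9995), and Casp12 like Nhsl1 and Syt2 (0.9975 and 0.9970). Nlrp3 was most like Calcrl and Epsti1 (0.9863 and 0.9761) and Pycard like Acer1 and Slc6a12 (0.9786 and 0.9469). Nlrp3 was called in only 2 libraries and Pycard in 3, all with weak peaks, so these values rest on few calls. No other gene had the call pattern of Pycard. Il1a was most like Slc25a48 and Klrg1 (0.9987 and 0.9984). Ifi204 and Il1a shared their call pattern with 1338 other genes, so that many genes have a value close to theirs.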

How the data were processed

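ATAC-seq gave 12 libraries, each with its own peak list. Per the submitters' processing notes, the build was mm10 and the tools included MACS2, Picard and Bowtie2 as well as FastQC, MultiQC, ChIPseeker and DiffBind, with no role, order or version stated. Each peak's fold enrichment, a ratio to local background, its −log10 p-value, its −log10 q-value and its score were made by the authors' peak caller in each library on its own, and the summit position is also deposited. Every list ended at a q of 0.05. Read counts were not used, so no counting interval is given.

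Distinct intervals on 21 chromosomes were kept and ranked by −log10 q within a list. Peaks of the 12 libraries that overlapped were merged into 179635 regions, and region values use the strongest peak. Genes and starts came from GENCODE M21, sequence from GRCm38.p6 and RefSeq promoters of the same build; 9 of the 10 members had a promoter entry. Repeat bases are those in lower case in that sequence. Motifs were sought on both strands as exact letters, and the letters of different motifs may overlap.

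Locus counts were compared by exact two-sided permutation within line (20 relabellings) or over both lines (400), adjusted by Benjamini-Hochberg over 20874 genes, with Python 3.11.15, numpy 2.4.6, pandas 2.3.3 and scipy 1.17.1, after tests on simulated data. Fold and rank were compared without a test. The members and lists were chosen with earlier results of these data known. Of 109 list symbols 107 matched, 5 by an older symbol. Named were all members, their regions at a start or called in 1 arm or 1 line alone (the strongest), list genes called in 1 arm or 1 line alone, and the 2 genes most alike. Other regions and genes in the text were chosen after their values were seen. Alternatives were a −log10 q or fold of at least 5, equal list lengths, other window widths, summits, 1 library fewer, every deposited line, covered bases, a replicate block and each library left out. Some list genes and genes most alike are not reported here.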

Additional observations from a re-analysis of the deposited data

Results flagged for a closer look

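For the promoter peak of Il18 in lists of equal length, every 4T1 DAC library lay below every 4T1 control, with a mean difference of −18.6 percentile points, while every B16F10 DAC library lay above every B16F10 control, with a mean difference of 3.50 points. It is given here because the ranks moved in opposite directions, but in B16F10 the lowest DAC rank was 76.4 and the highest control rank 76.1. The B16F10 folds overlapped, with 15.7, 18.3 and 14.1 in DAC libraries and 17.3, 17.8 and 16.9 in controls. Among genes with a promoter peak in all 6 lists of the line, 18.5% had every DAC library below every control in 4T1 and 9.2% every one above in B16F10. The difference between the lines was not tested, the dose also differs between them, and the peak is shared with a start of Bco2.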

How the results depend on the processing

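The number of members whose locus count passed the test for DAC was 0 under every alternative run, but so was the number of all genes. A member could pass only if many other genes did, so this 0 says little of the members. The 10 members higher in 4T1 were 10 under the other alternatives and fell to 6 with 49622 peaks in each library. There the line differences of Casp1 and Casp4 were −0.333 each. The number of members called at a promoter in 4T1 controls alone, 0 as reported, was 1 at a −log10 q of at least 5, 1 with equal lists within a line, 1 with equal lists in all libraries and 2 when 1 library could deviate; leaving out single libraries gave 0 to 2, with Casp1 without 4T1 DAC 2 and with Nlrp3 and Pycard without 4T1 control 2. In 4T1 DAC libraries alone it was 1 with equal lists in all libraries and 1 with promoters of 500 bp each way. In B16F10 controls alone, 0 as reported, it was 1 with wider promoters, 1 when 1 library could deviate, and 0 to 1 with single libraries left out, where Aim2 was called without B16F10 control 2. The 2 members called in all 4T1 and no B16F10 libraries became 4 at a −log10 q or a fold of at least 5, and 1 with equal lists in all libraries. The 12 regions in 4T1 DAC libraries alone became 7 at a fold of at least 5 and 7 with equal lists in all libraries. The 4 regions in 4T1 controls alone became 7 at a −log10 q of at least 5, 8 at a fold of at least 5 and 9 with equal lists within a line, and 4 to 9 with single libraries left out. For promoter and region calls, the shares of all genes and of all regions under the alternatives were not measured. The region alternatives were chosen after seeing the data. The causes were not tested.

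The DAC differences of locus counts that changed sign, none past the threshold, were these. At a −log10 q of at least 5, Il1b had −0.833. At a fold of at least 5, Aim2 and Il18 had −0.333 each, Ifi204 −0.500, Pycard −0.167 and Il1b −1.17. With equal lists within a line, Ifi204 and Il18 had −0.333 each, Pycard −0.500 and Il1b −1.17. With equal lists in all libraries, Il1b and Il18 had −0.167 each. With 25 kb each way, Nlrp3 had 0.667 and Pycard −0.333, and with 100 kb Il1a had 2.5. In covered bases, Nlrp3 had 230, Pycard −576, Il1a 1.17 and Il1b −639. With single libraries left out, Il1b ran between −0.0833, without 4T1 control 1, and 0.417, without 4T1 control 3. Some DAC differences became 0: Ifi204 at a −log10 q of at least 5, Aim2, Pycard, Casp1 and Casp4 with equal lists in all libraries, Casp4 and Casp12 with 100 kb, Pycard without 4T1 DAC 3, and Il1b without 4T1 DAC 2 or B16F10 DAC 2. The line differences of Nlrp3 and Pycard no longer passed with equal lists in all libraries. The other member values kept their direction and side of the threshold.

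No effect shared by same-numbered libraries was seen, as their correlations ran from −0.0895 to 0.0735 over 6 pairs. These values cannot show whether the libraries were prepared in pairs, which the labels do not say. With a replicate block, 0 members passed for DAC and 10 for the lines (exact permutation, adjusted p = 0.0491). The block allows only 64 relabellings. Unadjusted p-values under 0.05 numbered 1179 among all genes for DAC and 13272 for the lines. With that number for DAC no member could pass after adjustment, so this 0 says nothing of the members.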

Other observations

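Some regions of the member loci were called in both 4T1 arms but at unequal strength, and these were chosen after their values were seen. A region 9.8 kb from the Il1b 5′ end, beyond the gene, had folds of 2.61, 3.06 and 2.71 in 4T1 DAC libraries and 8.49, 9.25 and 8.5 in 4T1 controls, and was called in controls alone at a fold of at least 5. A region at a start of Gm5738, −22.9 kb from Pycard, had folds of 3.9, 4.55 and 4.21 with DAC and 8.38, 9.89 and 8.59 in controls. At −47.2 kb from Il18, at a start of Plet1os, the folds were 3.2, 2.8 and 3.03 with DAC and 7.26, 7.74 and 10.2 in controls. A region at 38.3 kb from Il18 ran the other way, with 8.88, 10.2 and 9.9 in 4T1 DAC libraries and 5.59, 5.53 and 5.05 in 4T1 controls. No test was made of these values.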
